A study of Mus musculus with 12 samples.

Results

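The cell cycle and proliferation genes described here were 45 genes of DNA replication and mitosis, chosen by name from the 37775 genes of the expression table. All 45 were in the table and all 45 passed the filter on low counts, among 22118 genes that passed it. Their mRNA was measured by bulk RNA-seq in 4 fractions of monocyte-macrophage lineage cells (Mo-Macs), sorted from the ear skin of WT BALB/c mice on day 5 of IgE-mediated chronic allergic inflammation (IgE-CAI), with 3 libraries per fraction. In this model all mice received 300 μg of TNP-specific IgE intravenously and, on the next day, 10 μg of TNP-OVA in the ear, and no unchallenged sample was compared. The fractions, from the label names, were Ly6ChiPD-L2lo classical monocytes, Ly6ChiPD-L2hi early classical monocyte-derived macrophages (CMDMs), Ly6CloPD-L2hi late CMDMs and Ly6CloPD-L2lo resident-like macrophages. They were separated by Ly6C and PD-L2 staining after a gate on CD45+CD11b+SiglecF-Ly6G- cells. Adult male mice were used throughout the study. Whether the 3 libraries of a fraction came from separate mice is not given in the sources used here, so that p-values measure the spread between libraries, which may be technical.

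A dividing cell first licenses its replication origins with the MCM helicase, then copies its DNA in S phase with the help of the PCNA clamp and of enzymes that make nucleotides, and finally separates its chromosomes in mitosis under the control of cyclin B, Cdk1, the Polo and Aurora kinases and the anaphase-promoting complex (APC/C). The transcription factor E2F1 is known for driving the genes of the first of these stages, while FOXM1 and B-MYB (the product of Mybl2), with the MuvB complex, drive those of mitosis. Blood monocytes are regarded as largely non-dividing cells, whereas macrophages of tissues can renew themselves by local division. In bulk RNA a smaller share of cycling cells and a lower amount of RNA per cycling cell cannot be told apart, and levels below are values for a whole fraction.

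Promoters of these genes were searched for short motifs, and 7 promoters are shown as examples of genes whose levels are described below. The sequences are from RefSeq on GRCm38.p6, run from 250 bases before to 50 bases after the gene start, and are printed 5′ to 3′ on the strand of the gene. Capitals mark 3 motifs on either strand, namely the cell cycle genes homology region (CHR, here TTTGAA or TTCGAA), the CCAAT box, and an E2F motif, TTTNNCGC with C or G at each N. The first 5 are genes with mitotic or late cell cycle expression and the last 2 are replication genes.
Top2a, chr11:99024140-99024439, minus strand: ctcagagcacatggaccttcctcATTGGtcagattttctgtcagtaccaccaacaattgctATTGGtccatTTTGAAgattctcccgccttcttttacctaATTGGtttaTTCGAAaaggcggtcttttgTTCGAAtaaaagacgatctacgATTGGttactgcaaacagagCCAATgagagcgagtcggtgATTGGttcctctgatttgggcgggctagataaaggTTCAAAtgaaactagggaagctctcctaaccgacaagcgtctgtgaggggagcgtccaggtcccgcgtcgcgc
Plk1, chr7:122159185-122159484, plus strand: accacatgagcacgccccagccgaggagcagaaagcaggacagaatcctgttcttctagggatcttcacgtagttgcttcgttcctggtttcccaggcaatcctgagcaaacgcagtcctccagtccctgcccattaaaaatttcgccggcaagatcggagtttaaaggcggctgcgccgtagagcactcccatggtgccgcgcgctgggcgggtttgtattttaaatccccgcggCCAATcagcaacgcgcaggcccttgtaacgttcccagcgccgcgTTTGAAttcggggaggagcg
Ccnb2, chr9:70421505-70421804, minus strand: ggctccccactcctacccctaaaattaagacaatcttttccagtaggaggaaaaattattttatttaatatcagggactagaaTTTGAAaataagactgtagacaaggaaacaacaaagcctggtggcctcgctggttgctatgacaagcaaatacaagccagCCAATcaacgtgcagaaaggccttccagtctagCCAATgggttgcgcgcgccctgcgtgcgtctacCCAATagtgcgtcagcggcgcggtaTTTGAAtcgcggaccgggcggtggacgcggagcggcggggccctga
Mki67, chr7:135716330-135716629, minus strand: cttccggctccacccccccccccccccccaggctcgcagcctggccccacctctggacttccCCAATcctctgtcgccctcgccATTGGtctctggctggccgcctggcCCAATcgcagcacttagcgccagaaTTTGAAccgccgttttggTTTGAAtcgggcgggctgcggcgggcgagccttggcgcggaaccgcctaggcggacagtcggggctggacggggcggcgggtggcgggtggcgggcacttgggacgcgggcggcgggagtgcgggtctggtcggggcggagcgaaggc
Cenpa, chr5:30666636-30666935, plus strand: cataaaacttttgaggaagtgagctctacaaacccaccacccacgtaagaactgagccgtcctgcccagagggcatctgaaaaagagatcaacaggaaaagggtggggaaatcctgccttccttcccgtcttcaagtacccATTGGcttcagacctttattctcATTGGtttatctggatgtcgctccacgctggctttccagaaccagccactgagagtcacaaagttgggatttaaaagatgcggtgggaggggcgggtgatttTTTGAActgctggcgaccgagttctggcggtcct
Mcm5, chr8:75109259-75109558, plus strand: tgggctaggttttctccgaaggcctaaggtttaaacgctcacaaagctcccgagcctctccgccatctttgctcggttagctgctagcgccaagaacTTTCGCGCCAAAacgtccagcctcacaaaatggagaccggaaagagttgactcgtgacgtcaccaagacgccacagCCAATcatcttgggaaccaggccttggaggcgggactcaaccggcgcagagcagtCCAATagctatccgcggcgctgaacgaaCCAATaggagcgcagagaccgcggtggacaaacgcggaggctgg
Cdc6, chr11:98907901-98908200, plus strand: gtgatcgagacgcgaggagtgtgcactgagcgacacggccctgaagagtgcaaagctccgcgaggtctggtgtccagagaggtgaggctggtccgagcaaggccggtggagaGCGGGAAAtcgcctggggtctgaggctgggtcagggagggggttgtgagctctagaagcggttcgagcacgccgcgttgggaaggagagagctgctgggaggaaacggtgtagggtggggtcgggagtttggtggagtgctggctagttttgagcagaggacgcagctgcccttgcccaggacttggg
In the Mcm5 promoter 2 E2F matches on opposite strands overlap, which gives a single run of capitals. Of the 45 genes, 35 had 1 or more of the 32851 promoters in the RefSeq table, and Mcm4, Stmn1, Kif20a, Aurkb, Foxm1, Tpx2, Ccna2, Ccne2, Gins2 and Ccnd1 had none. The 16 genes of the mitotic kinases, checkpoint, APC/C, centromere, motors and spindle had 13 promoters, of which 10 (76.9%) held a CHR together with a CCAAT box, against 7.52% of all promoters. Of these 13, 0 held the E2F motif. This set leaves out the cyclins, Cdk1, Top2a and Mki67, and the split depends on that choice. The Cdk1 promoter held 1 E2F motif beside its CHR, and that of Ccnb1 held no CHR. Those of Top2a, Ccnb2 and Mki67 held a CHR and no E2F motif. The 15 genes of replication and nucleotide synthesis had 15 promoters for 13 genes, of which 7 (46.7%) held the E2F motif, against 2.26% of all promoters, and 2 (13.3%) held a CHR with a CCAAT box. The Mcm5 and Cdc6 promoters shown are among these 7. The CCAAT box alone did not part the sets. It was in 11 (73.3%) of the replication and nucleotide synthesis promoters and 11 (84.6%) of the mitosis promoters, against 37.4% of all promoters. A match is a string of letters in the window and was not tested as a binding site.

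Total counts per library ranged from 12537178 to 19844113. At these depths 3 counts, the limit that a count of 0 allows, corresponded to 0.162 to 0.239 CPM (counts scaled to an equal library total). This limit covers counting error only. All levels below are CPM after TMM normalization, which takes most genes as unchanged. Tests were edgeR quasi-likelihood F tests on all 12 libraries with Benjamini-Hochberg adjustment over 22118 genes, and a gene was called at an adjusted p under 0.05. All 8 Mo-Mac markers were detected in every fraction, with a sum of 622 to 1021 CPM in early CMDMs and 1426 to 1808 CPM elsewhere. Of these, Ccr2 was 427 to 457 CPM in resident-like macrophages and 355 to 453 CPM in classical monocytes. In early and late CMDMs it was 98.1 to 164.8 CPM. The paper describes its single-cell cluster of resident-like macrophages as Ccr2 low and Adgre1 high. Adgre1 was 170 to 199 CPM in resident-like macrophages, 192 to 214 CPM in late CMDMs and 70.1 to 105.7 CPM elsewhere. The share of resident macrophages in the resident-like fraction was not tested. Of the genes of the sort, Ly6c2 was 380 to 607 CPM in classical monocytes and 15.9 to 53.6 CPM in the other fractions. Pdcd1lg2, which encodes PD-L2, was 20.05 to 22.7 CPM in the early CMDMs, 30.7 to 33.4 CPM in late CMDMs, 13.1 to 16.2 CPM in classical monocytes and 8.49 to 11.6 CPM in resident-like macrophages.

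Genes of other cell types moved with the fractions as well. The summed level of 8 keratinocyte markers was 19236 to 30440 CPM in early CMDMs, against 2110 to 4562 CPM in classical monocytes, 3554 to 4200 CPM in late CMDMs and 2576 to 2952 CPM in resident-like macrophages. The 6 fibroblast markers summed to 3255 to 5588 CPM in classical monocytes, against 2988 to 4205 CPM in early CMDMs, and to at most 499 CPM in the other fractions. The 7 T cell markers summed to 195 to 255 CPM in classical monocytes and at most 55.8 CPM elsewhere, and the 6 dendritic cell markers to 771 to 1021 CPM in resident-like macrophages and at most 204 CPM elsewhere. Cd207, which encodes langerin, made up most of the dendritic cell sum in resident-like macrophages, with 679 to 920 CPM there and 31.1 to 75.9 CPM elsewhere. The other 5 dendritic cell markers summed to 79.1 to 100.8 CPM in resident-like macrophages, below the 136 to 169 CPM of classical monocytes. The 6 endothelial cell markers summed to 148 to 159 CPM in the early CMDMs, 143 to 167 CPM in late CMDMs, 74.8 to 83.7 CPM in classical monocytes and 46.4 to 78.7 CPM in resident-like macrophages. The 6 neutrophil markers summed to 93.0 to 107 CPM in resident-like macrophages, 53.0 to 58.6 CPM in late CMDMs, 30.9 to 40.8 CPM in the early CMDMs and 17.85 to 21.2 CPM in classical monocytes. Retnlg (39.1 to 47.7 CPM) and Mmp9 (44.0 to 50.1 CPM) made up most of the sum in resident-like macrophages. Ly6g, whose protein the gate excluded, had 0 counts in all libraries but those of classical monocytes. The sums of the other lists were at most 42.5 CPM for basophils and mast cells and 11.7 CPM for B cells. Conversely, 10 pan-leukocyte genes summed to 4450 to 4810 CPM in classical monocytes, 1128 to 1807 CPM in the early CMDMs, 2472 to 2819 CPM in late CMDMs and 4132 to 4300 CPM in resident-like macrophages. Keratinocytes of the basal layer divide, and the part of these cells in the values of early CMDMs was not tested.

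**Figure D1:**
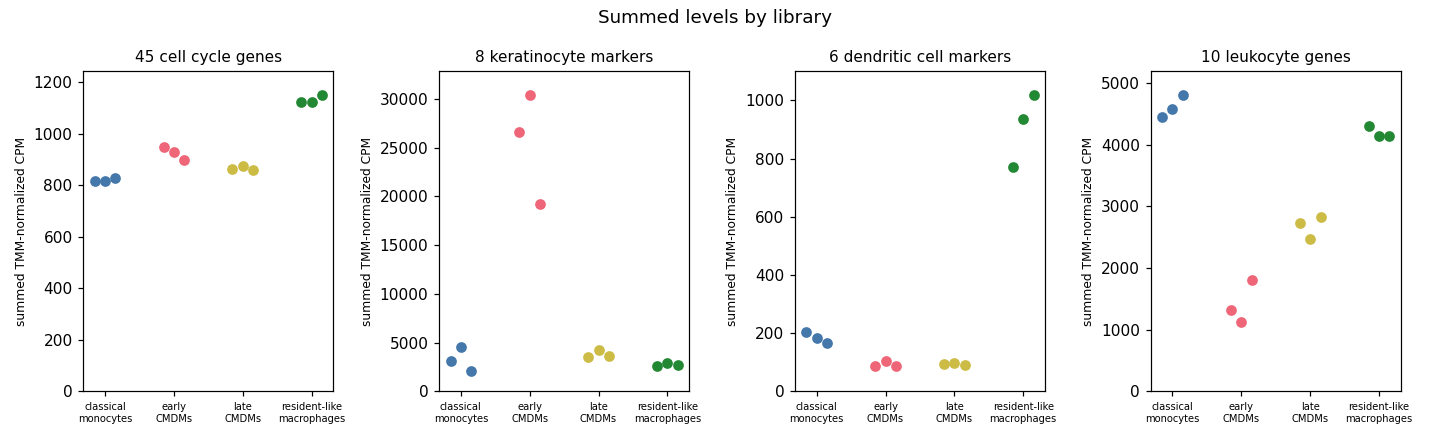
Summed TMM-normalized CPM of the 45 cell cycle genes, 8 keratinocyte markers, 6 dendritic cell markers and 10 leukocyte genes (panels, y axes from 0) in the 3 libraries of each fraction (x axis, dots). Keratinocyte markers were highest in early CMDMs (19236 to 30440 CPM), and the cell cycle genes in resident-like macrophages (1122 to 1152 CPM). The dendritic cell sum of resident-like macrophages (771 to 1021 CPM) consists mostly of Cd207 (679 to 920 CPM).

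Taken as a whole, the 45 genes were lowest in classical monocytes. Their summed level was 815 to 829 CPM in classical monocytes, 896 to 949 CPM in the early CMDMs, 861 to 876 CPM in late CMDMs and 1122 to 1152 CPM in resident-like macrophages. Abundant genes such as Pcna weigh most in this sum. Counted gene by gene, 28 of the 45 had their lowest mean in classical monocytes. The highest mean was in resident-like macrophages for 21 genes, in early CMDMs for 20, in classical monocytes for 2 and in late CMDMs for 2. A difference among the 4 fractions was called for 32 of 45 genes, where 60.8% of all genes tested were called. All 8 genes of the centromere, motors and spindle and all 4 of chromatin and cytoskeleton were among them, as were 7 of 8 mitotic kinase, checkpoint and APC/C genes and 6 of 7 cyclins and Cdk1. Of the 11 replication licensing and fork genes 4 were called, of the 4 nucleotide synthesis genes 2, and of the 3 transcription factors 1. Per kb of the longest annotated transcript, the mean level over the 4 fractions ranged from 0.435 CPM per kb for Cdc6 to 127 CPM per kb for Pcna.

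**Figure D2:**
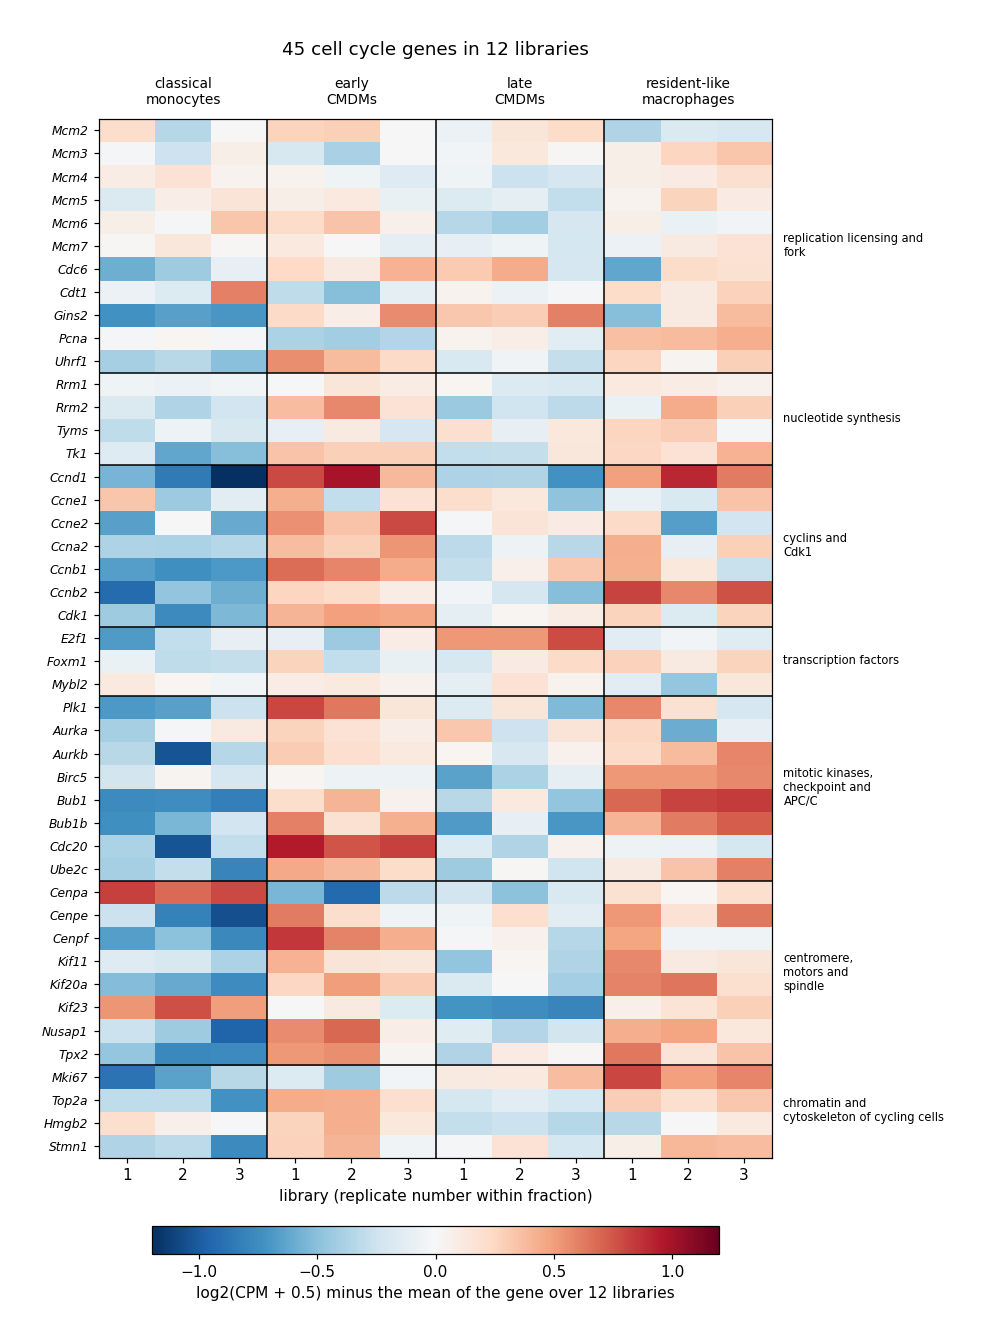
Heat map of the 45 cell cycle genes (rows, grouped by role) in the 12 libraries (columns, grouped by fraction). Color shows log2(CPM + 0.5) minus the mean of the gene over the 12 libraries, on a scale from -1.2 to 1.2. Most mitotic genes were low in classical monocytes, high in early CMDMs and resident-like macrophages and intermediate in late CMDMs, with Cenpa and Kif23 highest in classical monocytes.

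Between early CMDMs and classical monocytes, 26 of the 45 genes were higher and 4 lower in early CMDMs, against 24.2% of all genes tested called higher and 20.6% called lower. The median log2 fold change of the 45 genes was 0.70, and that of all genes tested was -0.01. By role, 6 of 8 mitotic kinase, checkpoint and APC/C genes, 6 of 8 centromere, motor and spindle genes and 6 of 7 genes of cyclins and Cdk1 were higher, the latter including Ccnd1 and Ccne2 of the G1 and S phases. Of the 11 replication genes 3 were higher and 2 lower. The largest rises were those of the cyclin D1 gene Ccnd1 and of Cdc20, an activator of the APC/C, and the 4 genes that fell were Cenpa, Kif23, Pcna and Cdt1. When each of the 6 libraries was left out in turn, 23 of the 26 higher calls and 3 of the 4 lower calls, all but Cdt1, were kept in every case. All 8 keratinocyte markers were higher and all 10 leukocyte genes lower in the same comparison.

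From early to late CMDMs, 20 of the 45 genes were lower and 3 higher in late CMDMs, against 17.5% of all genes tested called lower and 14.4% called higher, and the median log2 fold change was -0.46. The genes that rose were E2f1, Mki67 and Pcna. The counts depended on single libraries: 23 calls became 14 without early CMDM replicate 2, and 15 without early CMDM replicate 1 or without late CMDM replicate 1, and 13 of the 23 calls (2 higher, 11 lower) were kept in all 6 cases. All 8 keratinocyte and all 6 fibroblast markers were lower in late CMDMs as well.

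From late CMDMs to resident-like macrophages, 16 genes were higher and 1, E2f1, was lower, against 12.7% of all genes tested called higher and 15.4% called lower. The median log2 fold change was 0.34. Without late CMDM replicate 1 the 17 calls became 11, and 10 of them (9 higher and E2f1) were kept with each of the 6 libraries left out. In this step 5 of 8 keratinocyte, 3 of 6 fibroblast and 4 of 6 endothelial cell markers were lower. Higher were 4 of 6 dendritic cell, 4 of 7 T cell and all 4 tested basophil and mast cell markers and 7 of 10 leukocyte genes. The part of such cells was not tested.

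Between resident-like macrophages and classical monocytes the sums of keratinocyte markers overlapped and 3 of 10 leukocyte genes were lower, while all 6 fibroblast and 6 of 7 T cell markers were lower in resident-like macrophages. Of the dendritic cell markers, Cd207 was higher and 2 were lower, and 2 of 4 tested basophil and mast cell markers were higher (median log2 fold change of the 4, 1.62). The part of these cells was not tested. Here 26 genes were higher and 2, Cenpa and Kif23, lower in resident-like macrophages, against 10.8% of all genes tested called higher and 12.9% called lower. The median log2 fold change was 0.56, and 21 of the 26 higher calls were kept with each of the 6 libraries left out. Between late CMDMs and classical monocytes 11 were higher and 4 lower (Kif23, Cenpa, Mcm6 and Hmgb2), against 18.1% and 17.5% of all genes tested. These 15 calls became 8 without late CMDM replicate 2 and 9 without classical monocyte replicate 3, and 7 were kept in every case. In the same comparison all 6 fibroblast and 6 of 7 T cell markers and 8 of 10 leukocyte genes were lower, and 4 of 6 endothelial cell and 3 of 8 keratinocyte markers were higher. Between resident-like macrophages and early CMDMs 8 were higher and 5 lower (Cdc20, Ccne2, Cenpf, Mcm2 and Hmgb2), against 21.4% called higher and 25.1% called lower among all genes. The median log2 fold change of that comparison was 0.01, and its 13 calls became 8 without early CMDM replicate 1 or without resident-like replicate 3, with 6 kept in every case. All 8 keratinocyte, all 6 fibroblast and 5 of 6 endothelial cell markers were lower there, and all 10 leukocyte genes, 5 of 6 dendritic cell, 4 of 7 T cell and all 4 tested basophil and mast cell markers were higher. The comparisons share fractions, so that their counts are not independent of each other.

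The direction of these counts depended on what the libraries were scaled to. When they were scaled by the 10 leukocyte genes instead, the median of all genes tested moved to 1.72 between early CMDMs and classical monocytes, -0.93 between late and early CMDMs, -0.65 between resident-like macrophages and late CMDMs, 0.78 between late CMDMs and classical monocytes, 0.14 between resident-like macrophages and classical monocytes and -1.58 between resident-like macrophages and early CMDMs. Higher and lower calls among the 45 genes then became 45 and 0, 0 and 44, 0 and 10, 41 and 1, 24 and 1, and 0 and 45 in the same order. The higher calls in resident-like macrophages against late CMDMs were thus lost with this scaling, while against classical monocytes 24 genes were called higher. Relative to the median of all genes, 38, 9, 38, 34, 38 and 20 of the 45 genes lay above it with this scaling, and 38, 9, 38, 34, 38 and 21 with TMM. A change of scaling moves all genes of a library nearly alike, so that these counts could hardly differ and are no check on the scaling. With DEGES normalization the 8 higher and 5 lower genes of resident-like macrophages against early CMDMs became 6 and 8, so that no direction can be given for that pair.

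**Figure D3:**
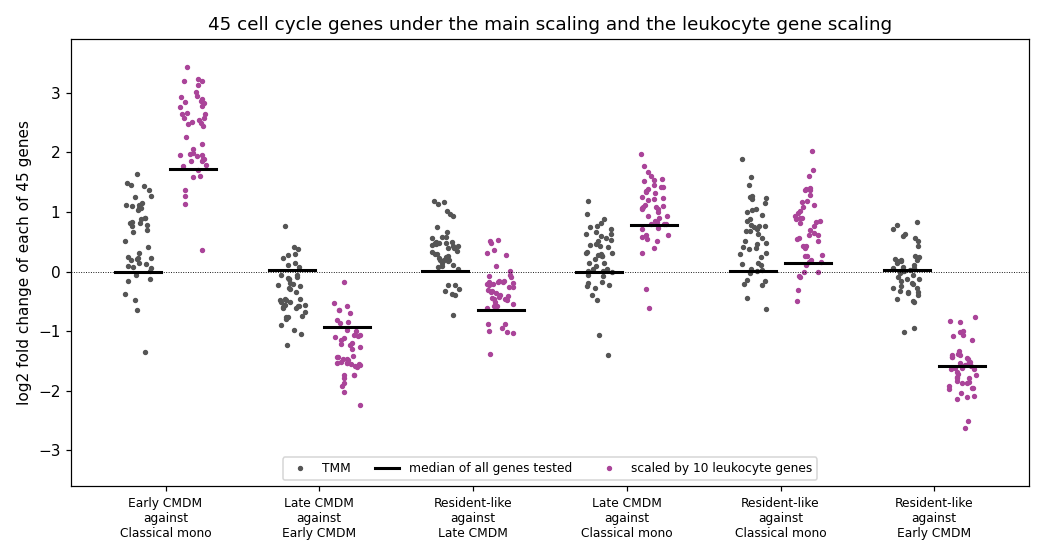
Log2 fold changes (y axis) of each of the 45 cell cycle genes (dots) in the 6 comparisons (x axis), with TMM normalization (grey) and with scaling by 10 leukocyte genes (purple). Black bars mark the median of all genes tested, which moved from -0.01 to 1.72 in early CMDMs against classical monocytes and from 0.02 to -0.93 in late against early CMDMs.

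Over the 3 steps in the order of the fractions, 10 genes were called higher, then lower, then higher again, 7 were called higher and then lower with no call at the last step, and 7 were higher at the first step with no later call. Another 11 had no call at any step. The marker of proliferation Mki67, which encodes the Ki-67 protein of cycling cells, was the only gene called higher at each step and the only one called in all 6 comparisons. Its level was 63.8, 75.6 and 93.8 CPM in classical monocytes, 105, 88.0 and 116 CPM in the early CMDMs, 128, 128 and 153 CPM in late CMDMs and 206, 167 and 178 CPM in resident-like macrophages. Neighbouring fractions overlapped only at the first step, and the resident-like libraries were above all others. Resident-like macrophages had 2.36-fold more than classical monocytes. The difference on the log2 scale was 1.24 ± 0.14 (SE, adjusted p = 7.54e-06 by the edgeR test). At the single steps the log2 fold change was 0.41 ± 0.14 from classical monocytes to early CMDMs (adjusted p = 0.0287), 0.40 ± 0.14 to late CMDMs (adjusted p = 0.0402) and 0.43 ± 0.14 to resident-like macrophages (adjusted p = 0.0323). Each single step lost its call when 1 of several libraries was left out, with adjusted p of up to 0.128 without classical monocyte replicate 1, 0.189 without early CMDM replicate 2 and 0.132 without resident-like replicate 1. With DEGES normalization the steps to late CMDMs (adjusted p = 0.0601) and to resident-like macrophages (adjusted p = 0.0631) were not called. When the 6 libraries of the first step were fitted alone, that step was not called (adjusted p = 0.0661). With leukocyte scaling the last pair of steps were negative, at -0.54 (adjusted p = 0.00507) and -0.22 (adjusted p = 0.241).

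**Figure D4:**
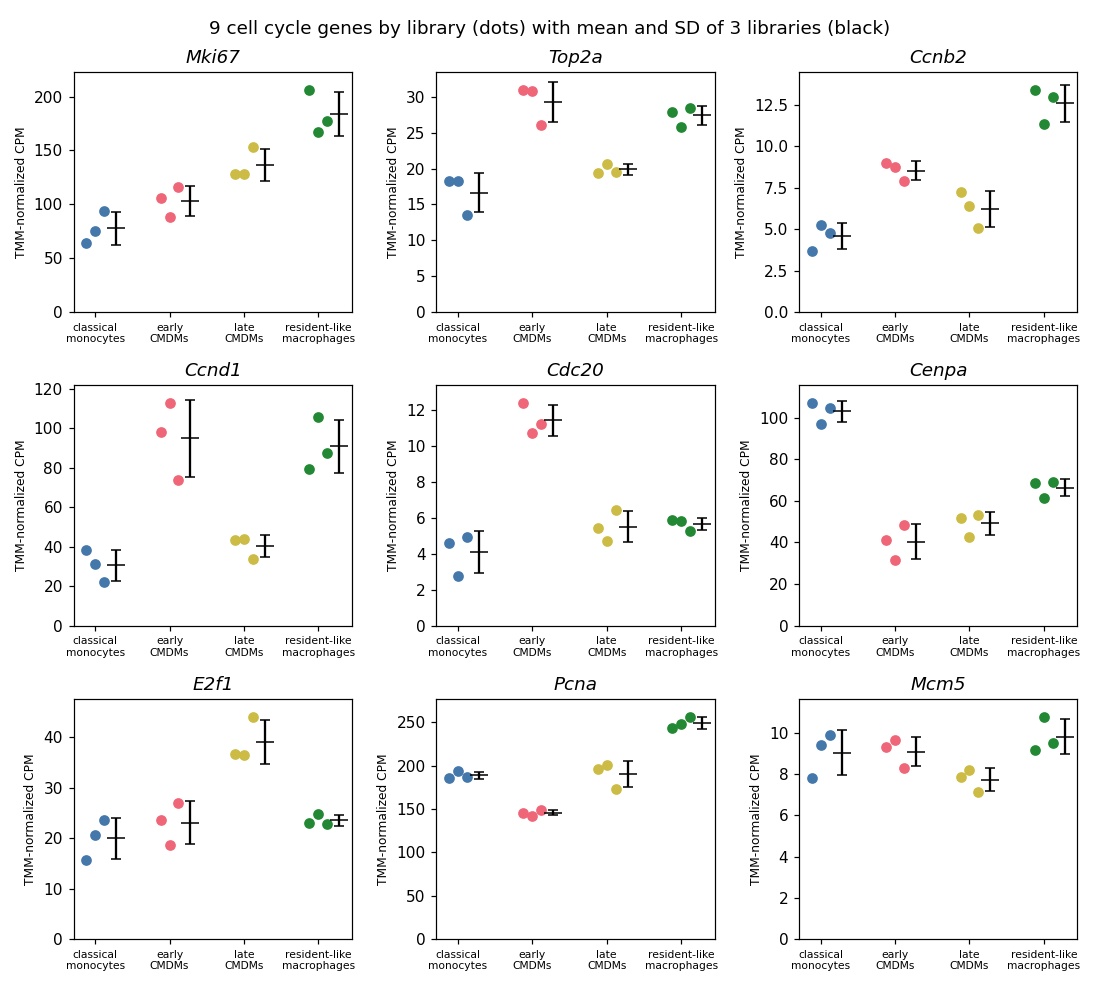
TMM-normalized CPM (y axes, from 0) of 9 cell cycle genes in the 3 libraries of each fraction (x axes, dots), with the mean and SD of 3 libraries in black. Mki67 was highest in resident-like macrophages (167 to 206 CPM), Cdc20 in early CMDMs (10.7 to 12.4 CPM), E2f1 in late CMDMs (36.5 to 44.0 CPM) and Cenpa in classical monocytes (97.1 to 107 CPM), while Mcm5 stayed between 7.15 and 10.8 CPM in all libraries.

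Of the other genes of chromatin and cytoskeleton, Top2a, the topoisomerase that untangles replicated chromosomes, had 18.2, 18.2 and 13.5 CPM in classical monocytes, 31.0, 30.8 and 26.1 CPM in the early CMDMs, 19.4, 20.7 and 19.5 CPM in late CMDMs and 27.9, 25.8 and 28.4 CPM in resident-like macrophages. Every early CMDM and resident-like library was above every classical monocyte and late CMDM library. Top2a rose with a log2 fold change of 0.82 ± 0.12 to early CMDMs (adjusted p = 5.17e-05), fell by 0.56 ± 0.12 on the log2 scale to late CMDMs (adjusted p = 0.00238) and rose by 0.46 ± 0.12 to resident-like macrophages (adjusted p = 0.0106; -0.19 with leukocyte scaling). Hmgb2, a chromatin protein abundant in dividing cells, had 62.1, 56.1 and 54.1 CPM in classical monocytes, 65.0, 72.9 and 58.8 CPM in the early CMDMs, 44.2, 45.1 and 42.4 CPM in late CMDMs and 42.8, 54.1 and 58.4 CPM in resident-like macrophages. Late CMDMs were below both Ly6Chi fractions in every library, and the log2 fold change in late against early CMDMs was -0.58 ± 0.12 (adjusted p = 0.00124). Stmn1, which encodes the microtubule-destabilizing protein stathmin, had 41.4, 42.8 and 31.3 CPM in classical monocytes, 64.9, 70.9 and 51.9 CPM in the early CMDMs, 53.0, 60.3 and 45.9 CPM in late CMDMs and 56.0, 70.3 and 68.9 CPM in resident-like macrophages. It was low only in classical monocytes, whose libraries did not overlap with any other. Hmgb2 and Stmn1 shared 18.7% and 18.9% of their 50-base stretches with transcripts of other genes, to which the counting could have assigned reads. The gene sharing most was Gm4739 for Hmgb2 and Gm11223 for Stmn1. Among genes described below, this share was 19.3% for Mybl2, 18.1% for Mcm7, 15.4% for Uhrf1 and 10.4% for Cdc20.

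Of the 11 replication genes, 4 were called in the test among the fractions. Mcm2, a subunit of the MCM helicase, had 9.97, 6.60 and 8.53 CPM in classical monocytes, 10.3, 10.5 and 8.55 CPM in the early CMDMs, 8.12, 9.48 and 10.0 CPM in late CMDMs and 6.52, 7.52 and 7.42 CPM in resident-like macrophages. Mcm5 had 7.82, 9.40 and 9.92 CPM, then 9.34, 9.67 and 8.29 CPM, 7.89, 8.21 and 7.15 CPM, and 9.16, 10.8 and 9.53 CPM in the same order. Mcm6 had 9.85, 9.24 and 11.9 CPM, then 11.01, 12.01 and 9.75 CPM, 7.25, 6.87 and 8.09 CPM, and 9.87, 8.80 and 9.12 CPM. Mcm6 was lowest in late CMDMs, where it fell by 0.56 ± 0.14 on the log2 scale from early CMDMs (adjusted p = 0.00659). Of the 6 MCM genes, Mcm4, Mcm5 and Mcm7 were called in no comparison, and between early CMDMs and classical monocytes their log2 fold changes lay between -0.16 and 0.01. Mcm3 ranged from 9.23 to 15.5 CPM, Mcm4 from 13.4 to 18.5 CPM and Mcm7 from 9.78 to 12.9 CPM over the 12 libraries.

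Pcna, the sliding clamp of DNA polymerase, had 186, 194 and 187 CPM in classical monocytes, 146, 142 and 148 CPM in the early CMDMs, 196, 201 and 173 CPM in late CMDMs and 244, 248 and 256 CPM in resident-like macrophages. It was lowest in early CMDMs in every library. The log2 fold change was -0.38 ± 0.09 in early CMDMs against classical monocytes (adjusted p = 0.00219), 0.38 ± 0.09 in late against early CMDMs (adjusted p = 0.00288), 0.39 ± 0.09 in resident-like macrophages against late CMDMs (adjusted p = 0.00297) and 0.40 ± 0.09 against classical monocytes (adjusted p = 0.00264). With leukocyte scaling the first 3 of these turned to 1.37, -0.57 and -0.26. Of the 50-base stretches of Pcna 19.1% occur in other genes, of which the pseudogene Pcna-ps2 shares most. Uhrf1, which restores DNA methylation behind the fork, had 3.51, 3.68 and 3.23 CPM in classical monocytes, 7.30, 6.39 and 5.70 CPM in the early CMDMs, 4.14, 4.62 and 3.84 CPM in late CMDMs and 5.82, 4.91 and 5.94 CPM in resident-like macrophages. Its log2 fold change from classical monocytes to early CMDMs was 0.89 ± 0.16 (adjusted p = 0.000274). Gins2, a subunit of the replicative helicase, was 5.05 to 5.33 CPM in classical monocytes, 9.17 to 13.04 CPM in the early CMDMs, 10.8 to 13.4 CPM in late CMDMs and 5.93 to 11.4 CPM in resident-like macrophages. It was higher in both early and late CMDMs than in classical monocytes. The log2 fold changes were 1.06 ± 0.21 (adjusted p = 0.000567) and 1.18 ± 0.21 (adjusted p = 0.000334), and 67.3% of its annotated exon bases lie opposite exons of other genes. Cdc6, which loads the MCM helicase, was low, with 1.17, 1.37 and 1.84 CPM, 2.47, 2.21 and 2.85 CPM, 2.63, 2.92 and 1.69 CPM, and 1.13, 2.43 and 2.35 CPM in the order of the fractions. Its partner Cdt1 had 22.6 to 30.2 CPM in early CMDMs and 28.9 to 49.7 CPM in classical monocytes, where the highest value was that of replicate 3.

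Of the enzymes that supply nucleotides, Rrm2 and Tk1 rose in early CMDMs. Rrm2, the regulated subunit of ribonucleotide reductase, had 9.36, 8.14 and 8.98 CPM in classical monocytes, 13.9, 16.1 and 12.03 CPM in the early CMDMs, 7.65, 8.94 and 8.43 CPM in late CMDMs and 10.0, 14.6 and 13.1 CPM in resident-like macrophages. Rrm1, its constitutive partner, had 32.1, 31.7 and 32.5 CPM, 33.5, 36.9 and 35.5 CPM, 33.9, 29.8 and 29.3 CPM, and 36.1, 35.4 and 34.7 CPM in the same order, and was called in no comparison. Rrm2 rose with a log2 fold change of 0.67 ± 0.16 to early CMDMs (adjusted p = 0.00235) and fell by 0.74 ± 0.16 on the log2 scale to late CMDMs (adjusted p = 0.00176), while the log2 fold changes of Rrm1 at these steps were 0.14 and -0.19. Tk1, the thymidine kinase, had 7.57, 5.33 and 5.80 CPM in classical monocytes, 10.9, 10.5 and 10.4 CPM in the early CMDMs, 6.85, 6.87 and 9.37 CPM in late CMDMs and 10.2, 9.64 and 11.5 CPM in resident-like macrophages. Its log2 fold change against classical monocytes was 0.77 ± 0.16 in early CMDMs (adjusted p = 0.00113) and 0.75 ± 0.16 in resident-like macrophages (adjusted p = 0.00276). Tyms, the thymidylate synthase, had 16.8, 20.02 and 18.2 CPM, 19.5, 22.4 and 18.05 CPM, 24.0, 19.4 and 22.9 CPM, and 25.1, 25.7 and 20.5 CPM. It was called only in resident-like macrophages against classical monocytes (log2 fold change 0.37, adjusted p = 0.0481).

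Among the cyclins, Ccnd1 had the largest log2 fold change in early CMDMs against classical monocytes. This cyclin couples growth factor signals to entry into the cycle. It had 38.1, 31.1 and 22.2 CPM in classical monocytes, 98.0, 113 and 73.8 CPM in the early CMDMs, 43.4, 43.8 and 33.9 CPM in late CMDMs and 79.5, 106 and 87.3 CPM in resident-like macrophages. Early CMDMs and resident-like macrophages were above the other fractions in every library. This gave a log2 fold change of 1.64 ± 0.19 from classical monocytes to early CMDMs (3.11-fold, adjusted p = 6.15e-06), -1.23 ± 0.19 to late CMDMs (adjusted p = 0.000167) and 1.17 ± 0.19 to resident-like macrophages (adjusted p = 0.000342), and 1.58 ± 0.19 in resident-like macrophages against classical monocytes (adjusted p = 2.15e-05). With leukocyte scaling the last of these steps, to resident-like macrophages, was 0.51 (adjusted p = 0.13). Of its exon bases 23.4% lie opposite exons of other genes. Keratinocytes and fibroblasts also express Ccnd1, and the part of these cells was not tested.

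The mitotic cyclins and their kinase were low in classical monocytes. Ccnb1, cyclin B1, had 2.34, 2.20 and 2.29 CPM in classical monocytes, 6.68, 6.26 and 5.64 CPM in the early CMDMs, 3.19, 4.19 and 5.12 CPM in late CMDMs and 5.55, 4.43 and 3.24 CPM in resident-like macrophages. Ccnb2, cyclin B2, had 3.69, 5.22 and 4.79 CPM, 8.97, 8.73 and 7.91 CPM, 7.25, 6.38 and 5.06 CPM, and 13.4, 11.3 and 13.01 CPM in the same order. Cdk1, their catalytic partner, had 5.29, 4.07 and 4.85 CPM, 9.83, 10.4 and 10.2 CPM, 6.69, 7.42 and 7.75 CPM, and 8.84, 6.43 and 8.89 CPM. All of them were higher in early CMDMs than in classical monocytes in every library, and only Ccnb2 of the 3 was called at the last step. From classical monocytes to early CMDMs the log2 fold change was 1.44 ± 0.22 for Ccnb1 (adjusted p = 4.57e-05), 0.90 ± 0.17 for Ccnb2 (adjusted p = 0.000375) and 1.10 ± 0.16 for Cdk1 (adjusted p = 3.06e-05). Ccnb2 also rose by 1.02 ± 0.16 from late CMDMs to resident-like macrophages (adjusted p = 0.000209; 0.36 with leukocyte scaling, adjusted p = 0.187) and was 1.46 ± 0.16 higher there than in classical monocytes (2.75-fold, adjusted p = 5.63e-06). Ccnb1 was also higher in late CMDMs than in classical monocytes, by 0.88 ± 0.23 (adjusted p = 0.00599). Of its 50-base stretches 23.4% occur in other genes, of which the pseudogene Ccnb1-ps shares most. Ccna2, cyclin A2 of S and G2 phase, had 5.66, 5.61 and 5.80 CPM in classical monocytes, 9.77, 9.23 and 11.02 CPM in the early CMDMs, 5.89, 7.11 and 5.80 CPM in late CMDMs and 10.2, 6.92 and 9.18 CPM in resident-like macrophages.

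The E cyclins, which start S phase, were low. Ccne1 had 2.03, 0.99 and 1.34 CPM in classical monocytes, 2.23, 1.14 and 1.77 CPM in the early CMDMs, 1.83, 1.70 and 0.944 CPM in late CMDMs and 1.40, 1.27 and 2.06 CPM in resident-like macrophages, and was called in no comparison. Ccne2 was 0.80 to 1.54 CPM in classical monocytes, against 2.09 to 3.04 CPM in early CMDMs. The difference on the log2 scale was 1.24 ± 0.32 (adjusted p = 0.00437). In resident-like macrophages it was 0.789 to 1.89 CPM, with a log2 fold change of -0.94 ± 0.31 against early CMDMs (adjusted p = 0.0199), a call that was lost without resident-like replicate 2 (adjusted p = 0.0863), resident-like replicate 3 (adjusted p = 0.056) or early CMDM replicate 3 (adjusted p = 0.08).

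Of the 3 transcription factors, E2f1 alone was called among the fractions. E2f1 had 15.6, 20.5 and 23.6 CPM in classical monocytes, 23.6, 18.6 and 27.0 CPM in the early CMDMs, 36.6, 36.5 and 44.0 CPM in late CMDMs and 23.1, 24.8 and 22.8 CPM in resident-like macrophages. All late CMDM libraries were above all others. The log2 fold change of E2f1 was 0.76 ± 0.15 from early to late CMDMs (adjusted p = 0.00113; -0.17 with leukocyte scaling), -0.73 ± 0.15 from late CMDMs to resident-like macrophages (adjusted p = 0.00193) and 0.97 ± 0.15 in late CMDMs against classical monocytes (adjusted p = 0.000118). Foxm1 had 5.23, 4.40 and 4.46 CPM, 6.80, 4.43 and 5.19 CPM, 4.78, 5.96 and 6.61 CPM, and 6.85, 6.01 and 6.77 CPM in the order of the fractions. Mybl2 had 2.15, 1.98 and 1.90 CPM, 2.10, 2.15 and 2.03 CPM, 1.75, 2.25 and 2.02 CPM, and 1.73, 1.27 and 2.18 CPM. Neither Foxm1 nor Mybl2 was called in any comparison, with log2 fold changes of 0.22 ± 0.18 (adjusted p = 0.344) and 0.06 ± 0.22 (adjusted p = 0.853) in early CMDMs against classical monocytes.

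Of the 8 mitotic kinase, checkpoint and APC/C genes, 4 were higher in resident-like macrophages than in late CMDMs. Plk1, the Polo-like kinase of mitotic entry, had 0.739, 0.770 and 1.17 CPM in classical monocytes, 2.97, 2.59 and 1.71 CPM in the early CMDMs, 1.27, 1.70 and 0.877 CPM in late CMDMs and 2.48, 1.76 and 1.24 CPM in resident-like macrophages. Its log2 fold change to early CMDMs was 1.43 ± 0.34 (adjusted p = 0.00238). Aurkb, the Aurora kinase of the chromosomal passenger complex, had 3.82, 2.14 and 3.79 CPM, 6.19, 5.75 and 5.38 CPM, 5.02, 4.26 and 5.12 CPM, and 5.88, 6.55 and 7.65 CPM in the order of the fractions. Birc5, or survivin, a subunit of the same complex, had 10.96, 13.1 and 11.2 CPM, 13.1, 12.3 and 12.3 CPM, 8.04, 9.79 and 11.9 CPM, and 18.7, 18.7 and 19.4 CPM. In early CMDMs its log2 fold change was 0.10 (adjusted p = 0.602). Its resident-like libraries were above all others. The log2 fold changes were 0.93 ± 0.14 against late CMDMs (adjusted p = 0.000118; 0.28 with leukocyte scaling, adjusted p = 0.257) and 0.69 ± 0.14 against classical monocytes (adjusted p = 0.00127). The checkpoint kinase gene Bub1 was 1.23 to 1.32 CPM in classical monocytes, 2.66 to 3.54 CPM in the early CMDMs, 1.69 to 2.80 CPM in late CMDMs and 4.42 to 4.94 CPM in resident-like macrophages. It had the largest log2 fold change of the 45 genes between resident-like macrophages and classical monocytes, 1.88 ± 0.22 (3.69-fold, adjusted p = 6.66e-06), and was 1.14 ± 0.21 higher than in late CMDMs (adjusted p = 0.000625; 0.48 with leukocyte scaling, adjusted p = 0.161). Bub1b, its relative in the same checkpoint, was 2.02 to 3.34 CPM in late CMDMs and 4.96 to 6.30 CPM in resident-like macrophages. Between these the log2 fold change was 1.18 ± 0.23 (adjusted p = 0.000987; 0.52 with leukocyte scaling, adjusted p = 0.106). Between early and late CMDMs Bub1b fell by 0.99 ± 0.23 on the log2 scale (adjusted p = 0.00331).

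Cdc20, which activates the APC/C for anaphase, was highest in early CMDMs. It had 4.62, 2.75 and 4.91 CPM in classical monocytes, 12.4, 10.7 and 11.2 CPM in the early CMDMs, 5.42, 4.68 and 6.41 CPM in late CMDMs and 5.88, 5.82 and 5.24 CPM in resident-like macrophages. The early CMDM libraries were all above the others. The log2 fold changes were 1.48 ± 0.19 against classical monocytes (adjusted p = 8.94e-06), -1.06 ± 0.19 in late against early CMDMs (adjusted p = 0.000409) and -1.02 ± 0.19 in resident-like macrophages against early CMDMs (adjusted p = 0.000275). Ube2c, the ubiquitin-conjugating enzyme of the same complex, was higher in early CMDMs and again in resident-like macrophages, with 7.88, 8.58 and 5.91 CPM, 14.7, 14.0 and 12.4 CPM, 7.73, 10.7 and 8.90 CPM, and 11.4, 13.5 and 16.3 CPM in the order of the fractions. Aurka was 1.27 to 2.87 CPM over the 12 libraries and was called in no comparison.

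Of the centromere, motor and spindle genes, 6 rose from classical monocytes to early CMDMs and 2 fell. Cenpf, a kinetochore protein, had 4.74, 5.39 and 4.35 CPM in classical monocytes, 14.4, 12.1 and 10.7 CPM in the early CMDMs, 7.65, 8.09 and 6.07 CPM in late CMDMs and 10.998, 7.58 and 7.53 CPM in resident-like macrophages. Its log2 fold change to early CMDMs was 1.36 ± 0.18 (adjusted p = 1.6e-05). Kif11, the motor that parts the spindle poles, had 7.45, 7.26 and 6.30 CPM, 11.3, 9.36 and 9.24 CPM, 5.89, 8.51 and 6.41 CPM, and 12.7, 9.04 and 9.30 CPM in the order of the fractions. Cenpe, Kif20a, Nusap1 and Tpx2, which serve chromosome alignment, cytokinesis and the spindle, ranged from 1.78 to 4.43 CPM in classical monocytes and from 4.18 to 9.36 CPM in the early CMDMs, and all 4 were called higher at this step with log2 fold changes between 1.07 and 1.14.

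The 2 exceptions were the centromeric histone gene Cenpa and the cytokinesis motor gene Kif23. Cenpa had 107, 97.1 and 105 CPM in classical monocytes, 41.2, 31.5 and 48.4 CPM in the early CMDMs, 51.5, 42.9 and 53.1 CPM in late CMDMs and 68.7, 61.5 and 69.0 CPM in resident-like macrophages. Every classical monocyte library was above every other library. The Cenpa promoter shown above holds a CHR and CCAAT boxes, as those of Plk1 and Ccnb2 do. The log2 fold change of Cenpa was -1.35 ± 0.13 in early CMDMs (adjusted p = 4.87e-07; 0.35 with leukocyte scaling), -1.07 ± 0.13 in late CMDMs (adjusted p = 9.83e-06; -0.28 with leukocyte scaling, adjusted p = 0.107) and -0.63 ± 0.13 in resident-like macrophages (adjusted p = 0.00171), each against classical monocytes. From early CMDMs to resident-like macrophages Cenpa rose by 0.72 ± 0.13 on the log2 scale (adjusted p = 0.000303; -0.85 with leukocyte scaling). Kif23 was 21.7 to 26.3 CPM in classical monocytes, 13.5 to 16.4 CPM in the early CMDMs, 8.56 to 9.08 CPM in late CMDMs and 15.9 to 18.6 CPM in resident-like macrophages. It was lowest in late CMDMs. The log2 fold changes were -0.64 ± 0.12 from classical monocytes to early CMDMs (adjusted p = 0.000372; 1.13 with leukocyte scaling), -0.77 ± 0.13 to late CMDMs (adjusted p = 0.000223) and 0.96 ± 0.13 to resident-like macrophages (adjusted p = 3.38e-05; 0.31 with leukocyte scaling, adjusted p = 0.224). Against classical monocytes it was -1.40 ± 0.13 in late CMDMs (adjusted p = 2.91e-07) and -0.44 ± 0.12 in resident-like macrophages (adjusted p = 0.0112), of which the latter call was lost without classical monocyte replicate 2 (adjusted p = 0.0628) and with leukocyte scaling (-0.31, adjusted p = 0.391).

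**Figure D5:**
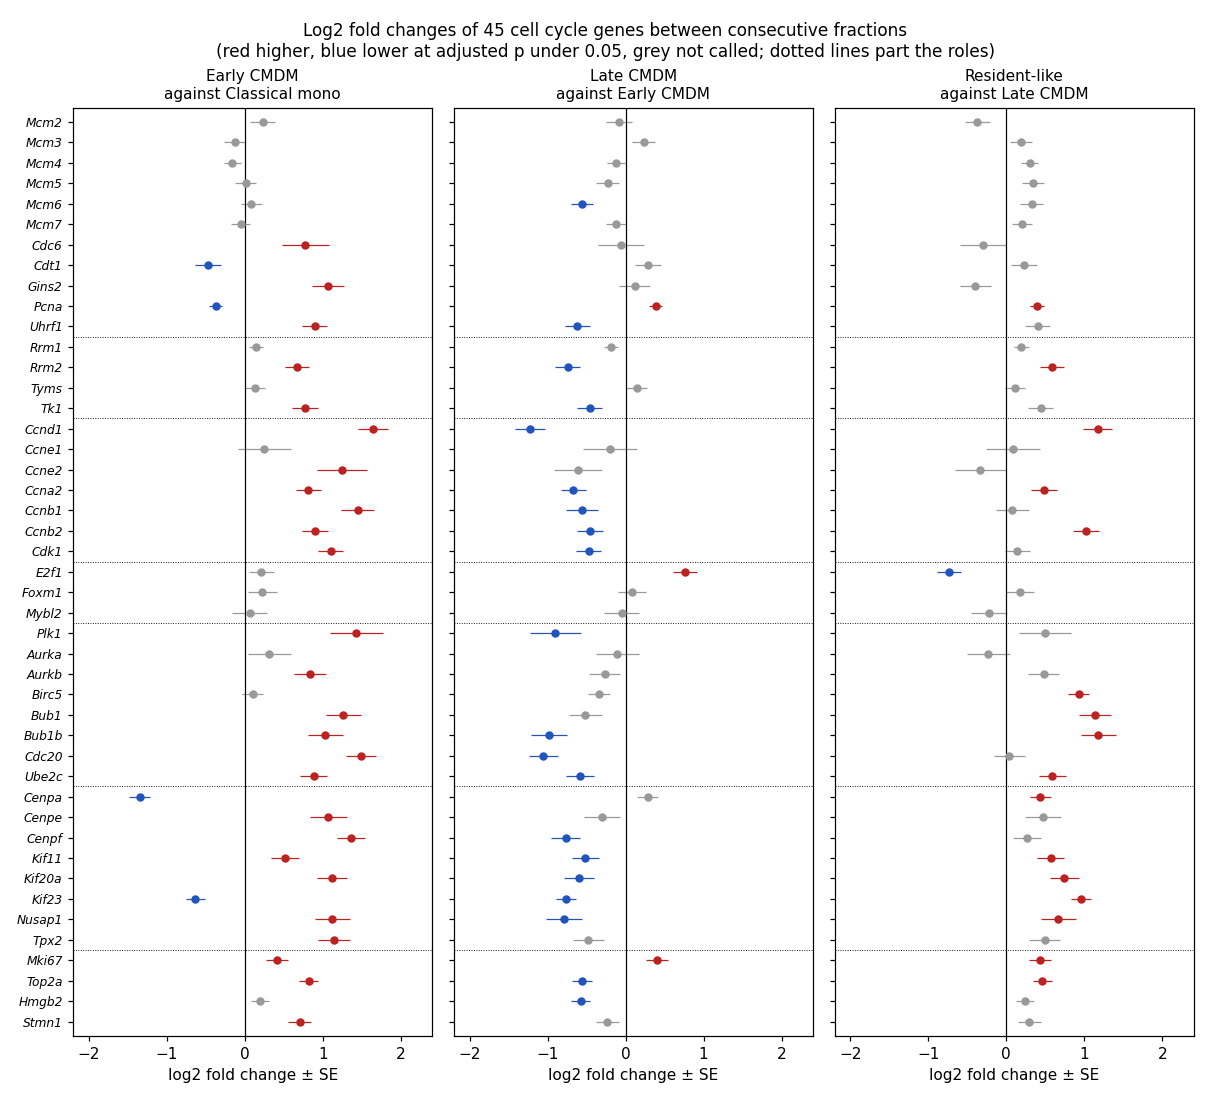
Log2 fold change ± SE (x axes) of the 45 cell cycle genes (y axis, grouped by role) between consecutive fractions (panels), red for higher and blue for lower at an adjusted p under 0.05, grey for no call. Mitotic genes lie mostly right of 0 in the first panel (26 of 45 genes higher), left of 0 in the second (20 lower) and right of 0 in the third (16 higher). The MCM genes Mcm2, Mcm3, Mcm4, Mcm5 and Mcm7 have no call in any panel, and Mcm6 is called lower in the second.

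Genes of the same pathways outside the 45 were counted in the same way. Of 50 other mitosis genes, 27 (54%) were higher and 1 (2%) lower in early CMDMs than in classical monocytes, where 24.2% and 20.6% of all genes were. In late against early CMDMs 1 (2%) was higher and 16 (32%) lower, against 14.4% and 17.5% of all genes. In resident-like macrophages against late CMDMs 10 (20%) were higher and 1 (2%) lower, against 12.7% and 15.4%, and against classical monocytes 24 (48%) were higher, against 10.8% of all genes. With each library left out in turn, 19, 9, 6 and 13 of these calls were kept in every case. The largest rises in early CMDMs were those of Depdc1a (log2 fold change 1.98 ± 0.42, adjusted p = 0.00115) and of the mitotic kinase gene Pbk (1.87 ± 0.25, adjusted p = 1.15e-05). In late CMDMs the spindle checkpoint kinase gene Ttk (-1.41 ± 0.20, adjusted p = 5.09e-05) and Pbk (-1.28 ± 0.24, adjusted p = 0.000606) fell most, and in resident-like macrophages Cep55 of cytokinesis (1.25 ± 0.26, adjusted p = 0.0018) and the kinetochore gene Spc25 (0.99 ± 0.24, adjusted p = 0.00587) rose most, both not called with leukocyte scaling (adjusted p = 0.114 and 0.328). Of 38 other replication genes, 9 (23.7%) were higher and 6 (15.8%) lower in early CMDMs than in classical monocytes, near the 24.2% and 20.6% of all genes. In late against early CMDMs 2 were higher and 2 lower, in resident-like macrophages against late CMDMs 3 and 2, and against classical monocytes 4 and 4 (10.5% each, where 10.8% and 12.9% of all genes were called). With each library left out, 10 of the 15, 2 of the 4, 3 of the 5 and 3 of the 8 calls were kept in every case, among them 4 of the 9 higher calls in early CMDMs. The DNA polymerase delta subunit gene Pold1 fell in early CMDMs (-1.27 ± 0.22, adjusted p = 0.000185; 0.48 with leukocyte scaling) while Rfc4 of the clamp loader rose (1.195 ± 0.19, adjusted p = 7.52e-05). Rfc4 (-0.80 ± 0.19, adjusted p = 0.00357) and the primase gene Prim1 (-0.77 ± 0.16, adjusted p = 0.00174) fell in late CMDMs, and Asf1b, a histone chaperone (0.87 ± 0.17, adjusted p = 0.00106), and Dut, the dUTPase (0.73 ± 0.19, adjusted p = 0.00835), rose in resident-like macrophages, both not called with leukocyte scaling (adjusted p = 0.446 and 0.781).

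Of 15 tested CDK inhibitor and antiproliferative genes, 5 (33.3%) were higher and 4 (26.7%) lower in early CMDMs than in classical monocytes, where 24.2% and 20.6% of all genes were. In late against early CMDMs 3 (20%) and 4 (26.7%) were called, against 14.4% and 17.5% of all genes, and in resident-like macrophages against late CMDMs 5 (33.3%) and 2 (13.3%), against 12.7% and 15.4%. Of these 9, 7 and 7 calls, 8, 6 and 6 were kept with each library left out. Cdkn2b, which encodes the p15 inhibitor of the cyclin D kinases, had 3.75, 1.98 and 1.06 CPM in classical monocytes, 13.5, 15.7 and 9.43 CPM in the early CMDMs, 1.99, 1.95 and 1.48 CPM in late CMDMs and 1.56, 1.52 and 2.001 CPM in resident-like macrophages. Its early CMDM libraries were above all others. Cdkn2b rose there by 2.52 ± 0.31 on the log2 scale (adjusted p = 6.98e-06) and fell by 2.83 ± 0.32 on the log2 scale to late CMDMs (adjusted p = 8.37e-06). Keratinocyte markers were also highest in early CMDMs, with sums of 26575, 30440 and 19236 CPM in replicates 1, 2 and 3. The part of keratinocytes in the Cdkn2b values was not tested. Cdkn2d, another inhibitor of this family, was 30.6 to 45.9 CPM in classical monocytes, against 14.6 to 14.9 CPM in early CMDMs (log2 fold change -1.27 ± 0.15, adjusted p = 4.68e-06; 0.47 with leukocyte scaling). Ccng2 fell by 0.74 ± 0.11 on the log2 scale to late CMDMs (adjusted p = 9.83e-05), and Tob2 (0.59 ± 0.11, adjusted p = 0.000549) and Gadd45b (0.59 ± 0.11, adjusted p = 0.000674) rose in resident-like macrophages, with -0.060 and -0.065 under leukocyte scaling. The inhibitor gene Cdkn2a did not pass the filter on low counts, at 0 to 0.669 CPM.

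Ccnd2 and Ccnd3 are the other D cyclin genes. Ccnd2 had 92.3, 85.7 and 55.3 CPM in classical monocytes, 189, 179 and 139 CPM in the early CMDMs, 70.4, 91.5 and 70.1 CPM in late CMDMs and 27.4, 37.5 and 37.6 CPM in resident-like macrophages. It fell at both of the later steps, with log2 fold changes of -1.12 ± 0.19 (adjusted p = 0.000302) and -1.18 ± 0.19 (adjusted p = 0.000331), the latter where Ccnd1 rose. Ccnd3 was 64.5 to 82.5 CPM in classical monocytes, 31.9 to 32.5 CPM in the early CMDMs, 29.5 to 31.8 CPM in late CMDMs and 55.4 to 59.5 CPM in resident-like macrophages. Its log2 fold change was -1.23 ± 0.10 to early CMDMs (adjusted p = 6.92e-08; 0.51 with leukocyte scaling) and 0.91 ± 0.10 to resident-like macrophages (adjusted p = 6.18e-06; 0.25 with leukocyte scaling, adjusted p = 0.229). Of 11 tested other cyclin, CDK and Myc genes, 7 (63.6%) were higher and 1 (9.09%), Ccnd3, lower in early CMDMs than in classical monocytes, where 24.2% and 20.6% of all genes were. In late against early CMDMs 4 (36.4%) were lower, against 17.5% of all genes, and in resident-like macrophages against late CMDMs 2 were higher and 2 lower (18.2% each, against 12.7% and 15.4%). Of these 8, 4 and 4 calls, 7, 4 and 2 were kept with each library left out. Wee1, the kinase that restrains Cdk1, rose in early CMDMs (1.21 ± 0.11, adjusted p = 2.58e-07), and Myc, a driver of growth, fell in late CMDMs (-0.88 ± 0.12, adjusted p = 3.08e-05). Mycn did not pass the filter on low counts, at 0.0539 to 0.669 CPM.

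Of 16 E2F and DREAM complex genes, 2 were higher and 3 (18.8%) lower in early CMDMs than in classical monocytes, where 24.2% and 20.6% of all genes were. In late against early CMDMs 1 (6.25%), E2f2, was lower, against 17.5% of all genes, and in resident-like macrophages against late CMDMs 4 (25%) were higher, against 12.7%. Of these 5, 1 and 4 calls, 4, 1 and 3 were kept with each library left out. Tfdp2, a partner of E2F proteins, rose in early CMDMs (0.66 ± 0.11, adjusted p = 0.000161) and Lin37 of the MuvB complex fell (-0.66 ± 0.14, adjusted p = 0.00109; 1.07 with leukocyte scaling). E2f2 was 10.6 to 16.3 CPM in classical monocytes, 10.2 to 13.7 CPM in the early CMDMs, 4.05 to 4.30 CPM in late CMDMs and 10.4 to 12.51 CPM in resident-like macrophages, with log2 fold changes of -1.50 ± 0.18 (adjusted p = 1.01e-05) and 1.43 ± 0.18 (adjusted p = 2.23e-05) at the last pair of steps. E2f8 rose with E2f2 at the last step, by 1.04 ± 0.23 (adjusted p = 0.0033; 0.38 with leukocyte scaling, adjusted p = 0.223).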

How the data were processed

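Bulk RNA-seq counts of 12 libraries, 3 for each of 4 sorted Mo-Mac fractions, were used. Per the submitters' processing notes and the study's methods, the authors trimmed reads with cutadapt 4.1, mapped them in 1 orientation to mouse reference RNA of GRCm38 with Bowtie2 2.4.5, counted them per transcript and added up the counts of each gene symbol, unnormalized, so that reads of near-identical transcripts could be split. All value columns were used (0 unused).

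The deposited counts were analysed with edgeR 4.0.16 in R 4.3.3 (TMM, filterByExpr by fraction, robust quasi-likelihood fit of all 12 libraries, Benjamini-Hochberg adjustment, threshold 0.05). Standard errors (SE) were derived from the fold change and the F statistic. The scripts were tested on simulated counts. Replicates differed beyond sampling noise (chi-square over degrees of freedom 4.24 to 21.9). The biological coefficient of variation was 13.2%.

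The 45 genes, the gene and marker lists, the motifs and the rule for the genes named (31 members with values in every library, the 2 largest changes in each direction per comparison, members never called, and the 2 largest changes per list) were chosen with earlier results of these data known. Sequence overlap and positions come from GENCODE M21. Alternatives were DESeq2 1.42.0, RLE factors, DEGES (TMM without called genes, 3 rounds), scaling by 10 leukocyte genes, other filters, a replicate block, 6 libraries alone, a log2 fold change of at least 1, and leaving out each library.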

Additional observations from a re-analysis of the deposited data

How the results depend on the processing

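The total counts of called members, higher and lower together, were within 1.5 times those reported with DESeq2, RLE factors, DEGES, no filter, a filter of 10 counts in 3 libraries and the 6 libraries alone. By direction, DEGES moved resident-like macrophages against early CMDMs from 8 higher and 5 lower to 6 and 8. With a fold threshold (log2 of at least 1) they fell to 15 (early CMDMs against classical monocytes), 2 (late against early CMDMs), 4 (resident-like macrophages against late CMDMs), 3 (late CMDMs against classical monocytes), 10 (resident-like macrophages against classical monocytes) and 1 (resident-like macrophages against early CMDMs). With leukocyte scaling, which moves all genes as given above, they were 44 for late against early CMDMs, 10 for resident-like macrophages against late CMDMs, 42 for late CMDMs against classical monocytes and 45 for resident-like macrophages against early CMDMs. Leaving out each library in turn gave 14 to 22, 11 to 16, 8 to 15 and 8 to 11 calls in these 4 comparisons.

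Of 87 log2 fold changes given with a test, DESeq2, RLE factors and both other filters changed 0 calls. DEGES ended 2 and the 6 libraries alone ended 1, all of them single steps of Mki67. Leaving out a library ended 17 of 522 and reversed 0. Leukocyte scaling ended 14 and turned the sign of 18, of which some were no longer called, as marked below. In early CMDMs against classical monocytes it gave 0.35 for Cenpa, 1.13 for Kif23, 1.37 for Pcna, 0.47 for Cdkn2d, 0.51 for Ccnd3, 1.07 for Lin37 and 0.48 for Pold1 (not called, adjusted p = 0.0953). In late against early CMDMs it gave -0.17 for E2f1 (not called, adjusted p = 0.396), -0.54 for Mki67 and -0.57 for Pcna. In resident-like macrophages against late CMDMs it gave -0.19 for Top2a, -0.22 for Mki67, -0.26 for Pcna, -0.060 for Tob2 and -0.065 for Gadd45b. None of these was called (adjusted p = 0.43, 0.241, 0.177, 0.754 and 0.754). Against early CMDMs it gave -0.76 for Mki67, -0.83 for Pcna and -0.85 for Cenpa. These shifts follow from the scaling itself, since the 10 leukocyte genes differed between fractions under TMM.

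Whether libraries of the same replicate number belong together is not given in the sources used here, and the main tests did not use the number. Of 18 same-numbered pairs of libraries 4 had deviations correlated over 0.1 (range -0.0987 to 0.248, against -0.215 to 0.171 for other pairs). The correlations of same-numbered pairs were mostly positive, so that a shared origin was not settled. A replicate block gave 30, 23, 18, 17, 28 and 13 called members in the 6 comparisons against 30, 23, 17, 15, 28 and 13 without it, and changed the call of 0 of the 87 fold changes. Depth limits most the genes of lowest level, such as Plk1 (from 0.739 CPM) and Ccne1 (from 0.944 CPM).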
